A study of Mus musculus with 4 samples.

Results

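The genes of DNA replication origins and polymerases were followed in sorted tumour cells of a mouse model of small cell lung cancer that lacks Rb1 and Trp53. The genes were chosen by a rule on symbols that uses no measured value, although earlier results of these data were known when they were chosen. The rule takes the numbered Mcm, Orc, Gins, Pola, Prim, Pold, Pole, Rfc and Rpa genes, with Pcna, Cdc6, Cdt1, Cdc45 and Fen1. This gave 43 of the 17746 gene symbols in the table, and all 43 passed the filter on low counts. Pole itself, the catalytic subunit of polymerase epsilon, has no number in its symbol and was therefore outside the 43. It is described with the other replication genes.

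All 4 libraries came from lung tumours of mice with floxed Rb1 and Trp53 that also carried the knock-in probe GFP-LC3-RFP-LC3ΔG. Autophagy degrades the GFP part of this probe, and its RFP part is left undegraded. Sorting kept live cells that carried EpCAM and RFP, and these were divided into GFP-negative cells and GFP-positive cells, with 2 libraries of each. The sources conflict on direction, since high autophagic flux belongs to GFP-positive libraries in the sample titles and to GFP-negative cells in the design text. GFP status alone is therefore used to name the groups, and each log2 change is GFP-negative minus GFP-positive. The sources used here do not give how the deletion was induced, the age of the mice or the number of animals. Whether replicate libraries stand for different animals is not stated either, so p-values measure only the spread between these libraries, which may be technical.

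Replication starts with licensing, in which the origin recognition complex, Cdc6 and Cdt1 load the ring-shaped MCM2-7 helicase onto DNA. Cdc45 and GINS then join MCM2-7 to form the active helicase, polymerase alpha with its primase lays down primers, and polymerases delta and epsilon extend them. PCNA is the sliding clamp that holds the polymerases on DNA, the RFC complex loads it, RPA coats single-stranded DNA, and Fen1 trims the flaps between Okazaki fragments. Many of these genes are known targets of E2F transcription factors, which the RB protein restrains, and tumours of this type lack RB and divide fast.

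Promoter letters are shown because MCM2-7 and the licensing genes are textbook E2F targets. RefSeq promoters (GRCm38.p6, the assembly of mm10), from 250 bases before to 50 after each start, were in the table used for 37 of the 43 genes. They were searched on both strands for TTTCCCGC, TTTCGCGC, TTTGCCGC and TTTGGCGC, the letters of the E2F consensus. One of these was found for 16 of the 37 genes (43.2%), against 524 of the 11351 genes of the expression table with a promoter entry (4.62%). Of the MCM2-7 genes, Mcm3, Mcm5, Mcm6 and Mcm7 had a match, Mcm2 had none, and Mcm4 is named only. The letters CCAAT, on either strand, were in 24 of the 37 (64.9%), against 42.7% of the expression table's promoters. In Mcm5 and Mcm6 a sense and an antisense match overlap by 4 bases, so each run of 12 capitals is 2 matches. A match of letters is a description and shows no binding.
Shown here are 4 stretches before the start that touch no exon annotated in GENCODE M21, with the matches in capitals and each read on its gene's strand (the RefSeq start of Cdc6 lies inside the longer GENCODE extent given further on):
Mcm5, chr8:75109330-75109389, plus strand: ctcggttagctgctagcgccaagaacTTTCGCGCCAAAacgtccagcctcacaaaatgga
Mcm6, chr1:128359782-128359841, minus strand: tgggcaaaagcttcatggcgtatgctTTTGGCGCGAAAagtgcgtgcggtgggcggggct
Cdc6, chr11:98907987-98908046, plus strand: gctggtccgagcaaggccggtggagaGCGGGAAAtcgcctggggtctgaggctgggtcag
Pola1, chrX:93632260-93632319, minus strand: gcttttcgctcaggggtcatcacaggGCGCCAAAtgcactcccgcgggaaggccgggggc

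The libraries were unequal in ways the groups do not explain. GFP-negative replicates 1 and 2 held 73997175 and 69676412 counts over 17617 and 15710 gene symbols, against 51994432 and 67536465 counts over 6063 and 16379 symbols in GFP-positive replicates 1 and 2. GFP-positive replicate 1 thus had no counts for 65.8% of the symbols, and GFP-negative replicate 1 for 0.73%. Levels are given below as CPM, the counts of a gene relative to the TMM-scaled size of its library, with replicate 1 before replicate 2. The 3 counts that an observed 0 allows correspond to 0.026 and 0.045 CPM for GFP-negative and 0.080 and 0.047 CPM for GFP-positive, covering counting error only. Epcam, the gene of the sort marker, stood at 255 and 88.9 CPM in GFP-negative libraries and 94.0 and 65.9 CPM in GFP-positive libraries. Of the 7 neuroendocrine and epithelial genes checked, 1, Chga, had 0 counts in GFP-positive replicate 1, and 4 others had under 20 counts there, whereas every one of the 7 had counts in the other 3 libraries.

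None of the 43 genes passed the quasi-likelihood test of edgeR at a Benjamini-Hochberg adjusted p under 0.05. Over all 16301 genes tested the call rate was 0.0982% (16 genes), with 0.00613% called higher and 0.092% called lower in GFP-negative libraries. At an unadjusted p under 0.05 the count was also 0 of 43, where 3.1% of all genes passed and 2.34% passed as higher. DESeq2's Wald test called 0 of 43, with a call rate of 0.386% over all genes, and limma-voom called 0 of 43 as well. The smallest unadjusted p was 0.181, for Mcm2, and the edgeR adjusted p was 1.0 for each of the 43. Fitted log2 changes were above 0 for 39 of the 43 genes, against 68.1% of all genes, with a median of 1.83 beside 0.91 over all genes tested. Without GFP-positive replicate 1 the median was 0.91 and 37 of 43 lay above 0, beside a median of 0.29 over all genes. Without GFP-negative replicate 1 it was 0.95 with 33 of 43 above 0, beside 0.40 over all genes. Without GFP-positive replicate 2, which left GFP-positive replicate 1 alone in its group, edgeR called 33 of the 43, all higher, where 42.7% of all genes were called higher and 45.2% were called in either direction. When a library is left out, the lone library of its group is assumed to vary like the other group.

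**Figure D1:**
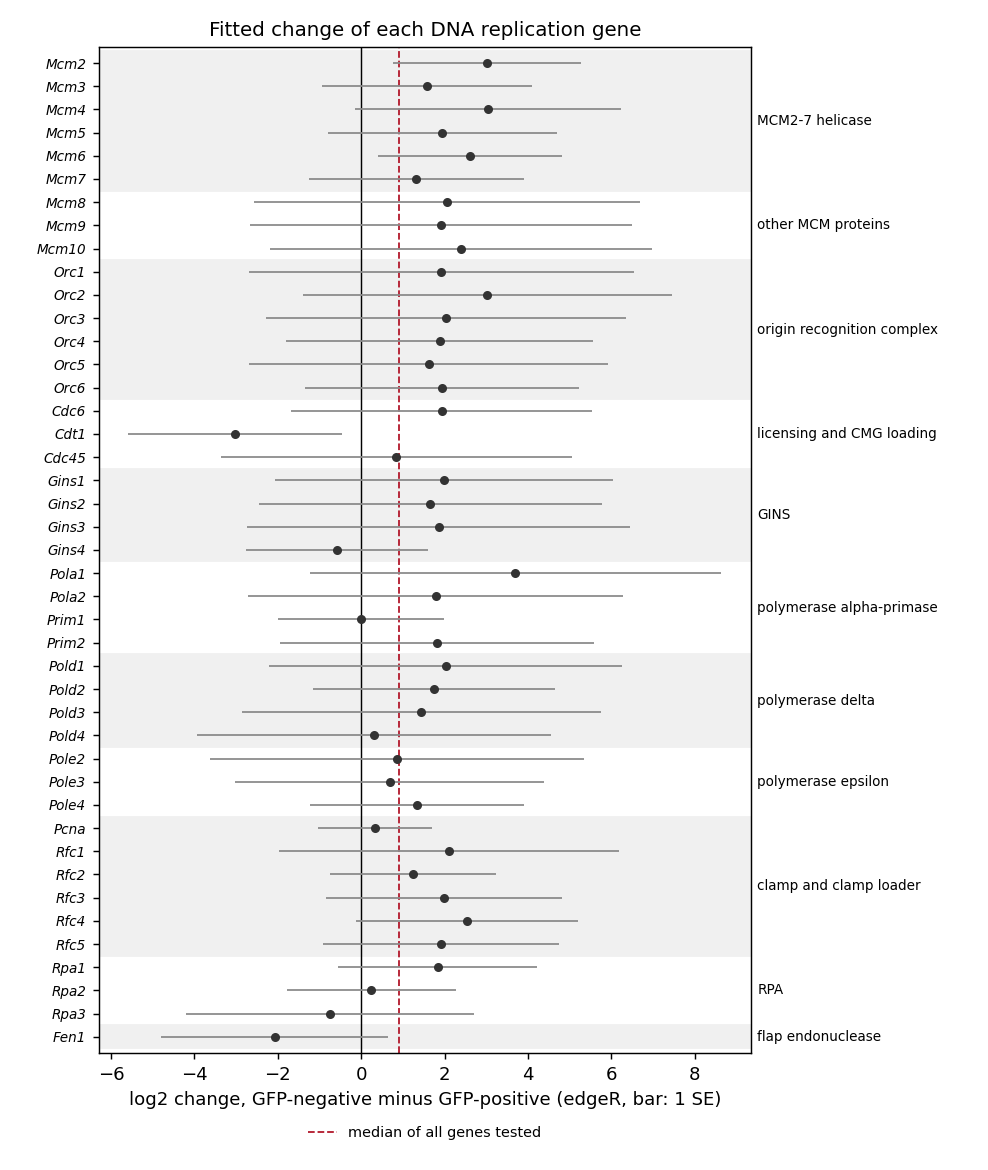
Fitted log2 change (x axis, GFP-negative minus GFP-positive) of each of the 43 genes (y axis, grouped by complex), with bars of 1 SE from edgeR (n = 2 libraries per group) and the median of all genes tested, 0.91, as a dashed line. Most points lie to the right of 0, and the bars are wide: 0 of 43 passed the test.

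Detection in GFP-positive replicate 1 had 3 classes. There 21 of the 43 genes had no counts, 13 had between 4 and 19 counts, and 9 had 483 counts or more, with none in between. These are 48.8%, 30.2% and 20.9% of the 43 genes, against 65.8% of all symbols with no counts, 12.8% with 1 to 19 and 21.4% with 20 or more in the same library. The 9 genes were Mcm3, Mcm7, Cdt1, Gins4, Prim1, Pcna, Rpa2, Rpa3 and Fen1. In GFP-negative libraries each of the 43 had 153 counts or more, apart from Orc1 and Pola1 at 0 in replicate 2, and in GFP-positive replicate 2 each had 143 or more.

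For 18 genes the groups stood apart in TMM-scaled CPM. By library totals Cdt1 overlapped, whereas Gins1, Rfc2 and Rfc3 came to stand apart, with both GFP-negative libraries higher. There GFP-negative replicates 1 and 2 were 1.43-fold and 3.135-fold above GFP-positive replicate 2 for Gins1, and 1.05-fold and 1.76-fold for Rfc2. For Rfc3 they were 1.59-fold and 3.01-fold above it. Under TMM scaling both GFP-negative libraries lay above both GFP-positive libraries for 17 of the 43 genes (39.5%), where 25.2% of all genes did so. They lay below them for 1, Cdt1, where 6.63% of all genes did so. All 17 had under 20 counts in GFP-positive replicate 1. They were 17 of the 34 replication genes with so few counts there, and 31.5% of all genes with so few counts lay apart in this direction. Of the 9 genes with 20 or more counts there, 5 had a fitted change above 0, and the median log2 change of the 9 was 0.0038, that of Prim1. For all genes in this class 24.8% lay above 0 and the median was -0.97. Cdt1 was 1 of these 9 (11.1%), where 27.8% of all genes in this class lay apart in its direction. In bulk samples, fewer cells of a type and less RNA per cell cannot be told apart.

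**Figure D2:**
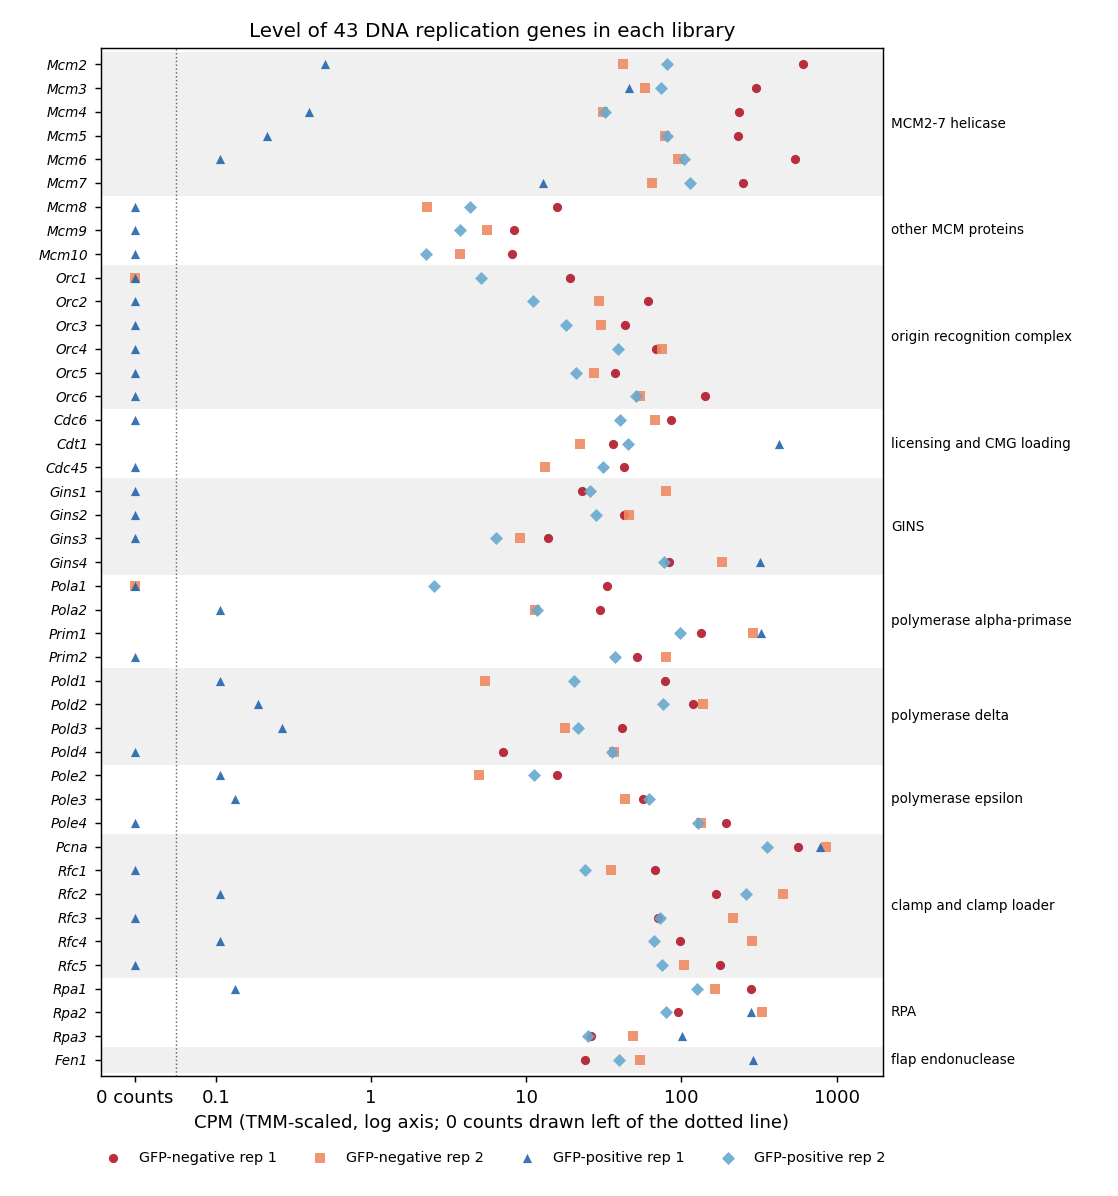
TMM-scaled CPM (x axis, log scale, with 0 counts drawn left of the dotted line) of each of the 43 genes in each of the 4 libraries (1 marker per library). GFP-positive replicate 1 lies either at or near 0 or, for 9 genes, at 12.9 CPM or more, and GFP-negative replicate 1 lies to the right for all MCM2-7 genes.

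The MCM2-7 genes encode the 6 subunits of the helicase ring. All 6 were highest in GFP-negative replicate 1, and 4 of the 6 were near 0 in GFP-positive replicate 1. Mcm2 (chr6:88883474-88898780) had 611 and 42.1 CPM in GFP-negative libraries, against 0.506 and 80.5 CPM in GFP-positive libraries. Mcm6 (chr1:128331590-128359664) had 539 and 94.7 CPM in GFP-negative and 0.107 and 103 CPM in GFP-positive libraries. For both genes GFP-negative replicate 1 was highest and GFP-positive replicate 1 near 0, and GFP-negative replicate 2 lay below GFP-positive replicate 2, by 1.91-fold for Mcm2 and 1.09-fold for Mcm6. Mcm4 (chr16:15623897-15637400) had 235 and 31.2 CPM in GFP-negative and 0.3998 and 32.0 CPM in GFP-positive libraries. Mcm5 (chr8:75109569-75128439) had 232 and 78.0 CPM in GFP-negative and 0.213 and 80.4 CPM in GFP-positive libraries. The groups overlapped for these genes too, because GFP-negative replicate 2 lay just below GFP-positive replicate 2. Mcm3 (chr1:20802968-20820312) and Mcm7 (chr5:138164583-138172422) were the subunits with more than 19 counts in GFP-positive replicate 1. Mcm3 had 301 and 58.5 CPM in GFP-negative and 46.1 and 74.3 CPM in GFP-positive libraries. Mcm7 had 250.1 and 64.8 CPM in GFP-negative and 12.9 and 113 CPM in GFP-positive libraries.

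Between the GFP-negative libraries, replicate 1 was above replicate 2 for 6 of 6 MCM2-7 genes, from 2.98-fold for Mcm5 to 14.5-fold for Mcm2, with 7.51-fold for Mcm4, 5.69-fold for Mcm6, 5.15-fold for Mcm3 and 3.86-fold for Mcm7. The median log2 ratio of the 6 was 2.44 under TMM scaling and 3.12 under library totals, beside 0.04 and 0.72 over all genes with 10 counts or more in both libraries. Against GFP-positive replicate 2, the same library was 2.21-fold (Mcm7) to 7.59-fold (Mcm2) higher. GFP-negative replicate 2 showed no such excess: 0 of 6 subunits were above GFP-positive replicate 2, with log2 ratios from -0.94 for Mcm2 to -0.036 for Mcm4 and a median of -0.23. The log2 change of the group fit was 3.01 ± 2.25 for Mcm2, 3.04 ± 3.19 for Mcm4, 2.62 ± 2.21 for Mcm6, 1.95 ± 2.75 for Mcm5, 1.58 ± 2.52 for Mcm3 and 1.32 ± 2.58 for Mcm7 (SE, n = 2 per group, edgeR adjusted p = 1.0 for each). Without GFP-negative replicate 1 the change was 0.054 for Mcm2, 0.95 for Mcm4, 0.95 for Mcm5, 0.87 for Mcm6, 0.042 for Mcm7 and -0.042 for Mcm3. Without GFP-positive replicate 1 it was 2.01 for Mcm2, 2.045 for Mcm4, 0.94 for Mcm5, 1.61 for Mcm6, 0.47 for Mcm7 and 1.27 for Mcm3, so the fitted change of each subunit was smaller without either library.

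Per gene length, on the authors' FPKM, the 6 subunits were close to each other in GFP-negative replicate 1, from 76.4 FPKM for Mcm7 to 156 FPKM for Mcm6, a 2.04-fold range. The range was 3.36-fold in GFP-negative replicate 2, with Mcm6 highest at 16.9 and Mcm2 lowest at 5.03 FPKM. In GFP-positive replicate 2 it was 2.86-fold, from 7.23 FPKM for Mcm4 to 20.7 FPKM for Mcm7. In GFP-positive replicate 1 it was 542-fold, from 0.0146 FPKM for Mcm6 to 7.92 FPKM for Mcm3. Mcm2 was thus second of the 6 in GFP-negative replicate 1 and last in GFP-negative replicate 2, so the order of the subunits was not shared between libraries of a group.

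**Figure D3:**
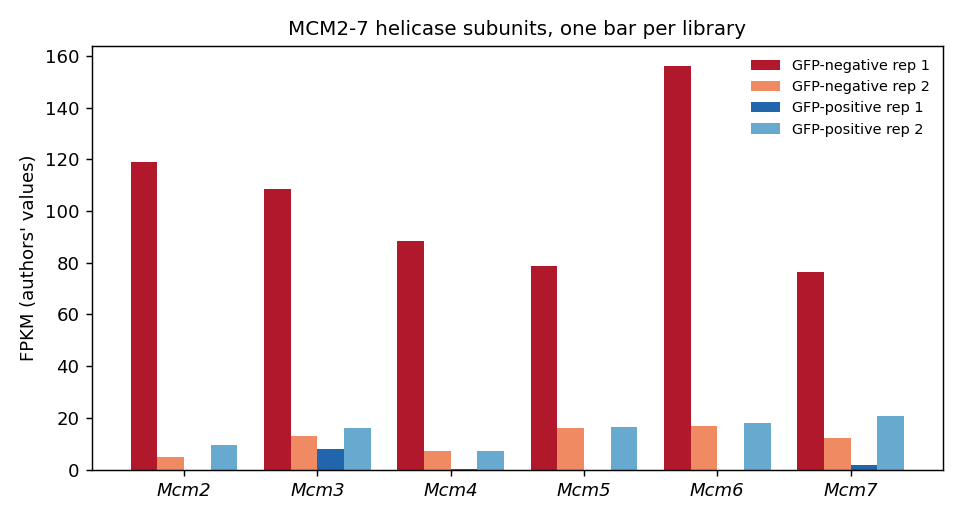
FPKM as the authors gave it (y axis, linear) of the 6 MCM2-7 subunits, 1 bar per library and no error bars. GFP-negative replicate 1 stands between 76.4 and 156 FPKM, and the other 3 libraries stand at 20.7 FPKM or less.

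The remaining MCM genes were low. Mcm8, which acts with Mcm9 in DNA repair, had 15.7 and 2.30 CPM in GFP-negative libraries and 0 and 4.35 CPM in GFP-positive libraries (log2 change 2.05 ± 4.63). Mcm10, which helps to start the loaded helicase, had 8.07 and 3.72 CPM in GFP-negative and 0 and 2.24 CPM in GFP-positive libraries (log2 change 2.39 ± 4.58). Mcm9 lay between 3.72 and 8.37 CPM in the libraries with counts. None of these 3 genes had counts in GFP-positive replicate 1. Per length, Mcm8 reached 5.72 FPKM in GFP-negative replicate 1, below each of the 6 helicase subunits there.

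Of the origin recognition complex, which marks the start sites of replication, no subunit had counts in GFP-positive replicate 1, so the comparison rests on the other 3 libraries. Orc6 (chr8:85299632-85308278), the smallest subunit, had 142 and 53.8 CPM in GFP-negative libraries and 0 and 50.9 CPM in GFP-positive libraries. Orc2 (chr1:58462771-58505109) had 60.6 and 29.6 CPM in GFP-negative and 0 and 11.1 CPM in GFP-positive libraries. Both GFP-negative libraries were above GFP-positive replicate 2 in these genes and in Orc3, Orc4 and Orc5. Orc1 had 19.2 and 0 CPM in GFP-negative and 0 and 5.07 CPM in GFP-positive libraries, so its groups overlapped. GFP-negative replicate 1 over GFP-positive replicate 2 gave log2 ratios from 0.82 for Orc4 to 2.45 for Orc2 with 6 of 6 above 0, and GFP-negative replicate 2 gave 0.079 for Orc6 to 1.42 for Orc2 with 5 of 5 above 0. The fitted log2 change was 3.02 ± 4.42 for Orc2 and 1.94 ± 3.29 for Orc6, and 2.02 and 0.93 without GFP-positive replicate 1. Orc6 had the highest FPKM of the 6 in each library with counts, at 77.6 and 18.1 FPKM in GFP-negative libraries and 16.7 FPKM in GFP-positive replicate 2.

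The licensing factors went different ways. Cdc6 (chr11:98907801-98923940), the ATPase that brings the helicase to the origin, had 85.1 and 67.6 CPM in GFP-negative libraries and 0 and 39.9 CPM in GFP-positive libraries. Cdt1 (chr8:122568015-122573554), which escorts MCM2-7 to DNA and is held back by geminin, had 36.2 and 22.2 CPM in GFP-negative libraries and 428 and 45.2 CPM in GFP-positive libraries. In TMM-scaled CPM both GFP-negative libraries lay above the GFP-positive ones for Cdc6 and below them for Cdt1. By library totals GFP-negative replicate 1 was 1.30-fold above GFP-positive replicate 2 for Cdt1, so the Cdt1 groups overlapped there. The log2 change was 1.94 ± 3.61 for Cdc6 and -3.02 ± 2.56 for Cdt1, both short of the threshold. Cdc45, which joins the helicase when it fires, had 42.8 and 13.3 CPM in GFP-negative and 0 and 31.2 CPM in GFP-positive libraries. Its fitted change of 0.84 ± 4.21 turned to -0.16 without GFP-positive replicate 1 and to -0.23 without GFP-negative replicate 1.

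GINS, the 4-subunit partner of Cdc45, was uneven. Gins4 (chr8:23226616-23237659) was present everywhere, at 83.0 and 183 CPM in GFP-negative libraries and 321 and 77.0 CPM in GFP-positive libraries. Gins1 had 22.7 and 79.7 CPM in GFP-negative and 0 and 25.8 CPM in GFP-positive libraries. Both had their higher GFP-negative value in replicate 2, by 2.203-fold for Gins4 and 3.51-fold for Gins1, the reverse of MCM2-7, and this held under library totals as well (log2 ratio of replicate 1 over replicate 2 of -0.46 and -1.13). The subunits Gins2 and Gins3 lay between 6.34 and 45.6 CPM in 3 libraries, and GFP-positive replicate 1 held none of their counts. The order by FPKM was the same in the 3 libraries with counts for all subunits, with Gins4, Gins1, Gins2 and Gins3 from highest to lowest, and Gins4 at 83.2 and 113 FPKM in GFP-negative libraries and 154 and 46.3 FPKM in GFP-positive libraries. The log2 change was -0.58 ± 2.18 for Gins4, which turned to 0.78 without GFP-positive replicate 1, and 1.99 ± 4.06 for Gins1.

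Polymerase alpha and its primase make the short RNA-DNA primers. Prim1 (chr10:128015168-128030037), the catalytic primase subunit, had 134 and 290.1 CPM in GFP-negative libraries and 325 and 98.3 CPM in GFP-positive libraries. Its groups overlapped fully, and the log2 change was 0.0038 ± 1.99. Pola1 (chrX:93304767-93632155), the polymerase subunit, had 33.3 and 0 CPM in GFP-negative and 0 and 2.56 CPM in GFP-positive libraries. Its fitted change of 3.70 ± 4.94 thus came from 1 library, and without GFP-negative replicate 1 it was -9.16. Pola2, the regulatory subunit, had 29.7 and 11.3 CPM in GFP-negative and 0.107 and 11.8 CPM in GFP-positive libraries (log2 change 1.79 ± 4.50). Prim2, the large primase subunit, ranged from 37.2 to 80.0 CPM where it had counts. Prim1 had the highest FPKM of the 4 in each library, at 46.9 and 62.3 FPKM in GFP-negative libraries and 54.2 and 20.6 FPKM in GFP-positive libraries.

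Polymerase delta copies mainly the lagging strand. Pold1 (chr7:44532746-44548849), its catalytic subunit, had 77.9 and 5.44 CPM in GFP-negative libraries and 0.107 and 20.3 CPM in GFP-positive libraries. GFP-negative replicate 1 was 14.3-fold above replicate 2, close to the ratio of Mcm2. Pold2, the structural subunit, had 119 and 138 CPM in GFP-negative and 0.187 and 76.1 CPM in GFP-positive libraries, and Pold3 had 41.5 and 17.8 CPM in GFP-negative and 0.267 and 21.5 CPM in GFP-positive libraries. Pold4, the smallest subunit, lay at 7.04 CPM in GFP-negative replicate 1, 5.23-fold below replicate 2, so subunits of the same enzyme parted within the GFP-negative group. The log2 changes of Pold1, Pold2 and Pold3 were 2.03 ± 4.24, 1.75 ± 2.90 and 1.44 ± 4.31, and that of Pold1 turned to -0.91 without GFP-negative replicate 1.

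Polymerase epsilon copies the leading strand. Pole4 (chr6:82618992-82705365), a small histone-fold subunit, had 193 and 133 CPM in GFP-negative libraries and 0 and 128 CPM in GFP-positive libraries. Its histone-fold partner Pole3 had 56.8 and 43.2 CPM in GFP-negative and 0.133 and 61.8 CPM in GFP-positive libraries. Pole2, the second-largest subunit, had 15.7 and 4.97 CPM in GFP-negative and 0.107 and 11.3 CPM in GFP-positive libraries. In TMM-scaled CPM GFP-positive replicate 2 thus lay below both GFP-negative values for Pole4, above both for Pole3 and between them for Pole2. By library totals GFP-negative replicate 1 was 1.49-fold above it for Pole3, so it lay between the GFP-negative values there. The log2 changes were 1.34 ± 2.56 for Pole4, 0.69 ± 3.70 for Pole3 and 0.86 ± 4.48 for Pole2, and those of Pole3 and Pole2 turned to -0.31 and -0.13 without GFP-positive replicate 1.

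Pcna (chr2:132249162-132253314), the sliding clamp, had the highest FPKM of the 43 genes in each of the 4 libraries, at 318 and 298 FPKM in GFP-negative libraries and 209 and 119 FPKM in GFP-positive libraries. In CPM it stood at 565 and 861 in GFP-negative libraries and 778 and 354 in GFP-positive libraries. Its groups overlapped, and its log2 change of 0.33 ± 1.37 had the smallest SE of the 43. Of the clamp loader, Rfc4 (chr16:23113943-23127737) had 98.4 and 286 CPM in GFP-negative libraries and 0.107 and 66.1 CPM in GFP-positive libraries. Rfc2 (chr5:134581366-134601805) had 168 and 453 CPM in GFP-negative and 0.107 and 261 CPM in GFP-positive libraries. Both are small subunits of the ring and had their higher GFP-negative value in replicate 2, by 2.91-fold and 2.70-fold, as did Rfc3 by 3.04-fold. Rfc1, the large subunit, and Rfc5 were the other way round, with 1.91-fold and 1.71-fold more in replicate 1. The log2 change was 2.54 ± 2.67 for Rfc4 and 1.25 ± 1.99 for Rfc2, and 1.54 and 0.25 without GFP-positive replicate 1.

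RPA is a trimer of a large, a middle and a small subunit. Rpa1 (chr11:75298166-75348324), the large one, had 282 and 164 CPM in GFP-negative libraries and 0.133 and 125 CPM in GFP-positive libraries. Rpa2 (chr4:132768332-132778752) had 95.2 and 331 CPM in GFP-negative and 281 and 79.9 CPM in GFP-positive libraries, and Rpa3 (chr6:8255936-8259173) had 26.3 and 48.6 CPM in GFP-negative and 101 and 25.1 CPM in GFP-positive libraries. Rpa1 thus had 5 counts in the library in which Rpa3 was highest. By FPKM the subunits stood within 2.19-fold and 3.78-fold of each other in GFP-negative libraries and 5090.0-fold and 1.21-fold in GFP-positive libraries. Fen1 (chr19:10199132-10204169), the flap endonuclease, had 23.9 and 54.1 CPM in GFP-negative and 289 and 39.8 CPM in GFP-positive libraries. The log2 changes were 1.83 ± 2.38 for Rpa1, 0.24 ± 2.03 for Rpa2, -0.75 ± 3.45 for Rpa3 and -2.07 ± 2.72 for Fen1, and that of Rpa3 turned to 0.57 without GFP-positive replicate 1.

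With GFP-positive replicate 1 set aside, ratios between single libraries show how the complexes parted, as values with no replicate check. GFP-negative replicate 1 over GFP-positive replicate 2 was above 0 on the log2 scale for 36 of the 43 genes (83.7%), with a median of 0.95, against 50.9% and 0.04 over all genes. Under library totals it was 41 of the 43, with a median of 1.65 beside 0.74 over all genes. The complex medians ran from -0.74 for Fen1 alone to 2.201 for MCM2-7. GFP-negative replicate 2 over GFP-positive replicate 2 was above 0 for 27 of 41 genes (65.9%), with a median of 0.47, against 49.0% and -0.036 over all genes. Here every member with a ratio lay above 0 for GINS (4 of 4, median 0.98) and RPA (3 of 3, 0.95). The same held for the clamp with its loader (6 of 6, 1.04), the origin recognition complex (5 of 5, 0.76) and Fen1 alone (0.44). MCM2-7 had 0 of 6 above 0. Orc1 and Pola1 had too few counts for a ratio in this pair, and both went the other way. The GFP-negative library held 0 counts of each, while its GFP-positive counterpart held 323 of Orc1 and 163 of Pola1. Between the GFP-negative libraries, replicate 1 over replicate 2, the median was 2.44 for MCM2-7 and -1.02 for the clamp with its loader. Scaling by library totals moved the median of all genes to 0.72 for this pair, and the clamp with its loader then had a median of -0.34 with 3 of 6 above 0, against 2 of 6 under TMM. Genes with the E2F letters had a median log2 ratio of 1.21 (n = 16) for GFP-negative replicate 1 over GFP-positive replicate 2, against 0.82 (n = 21) for those without, and of -0.20 (n = 14) against 0.56 (n = 21) for GFP-negative replicate 2.

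**Figure D4:**
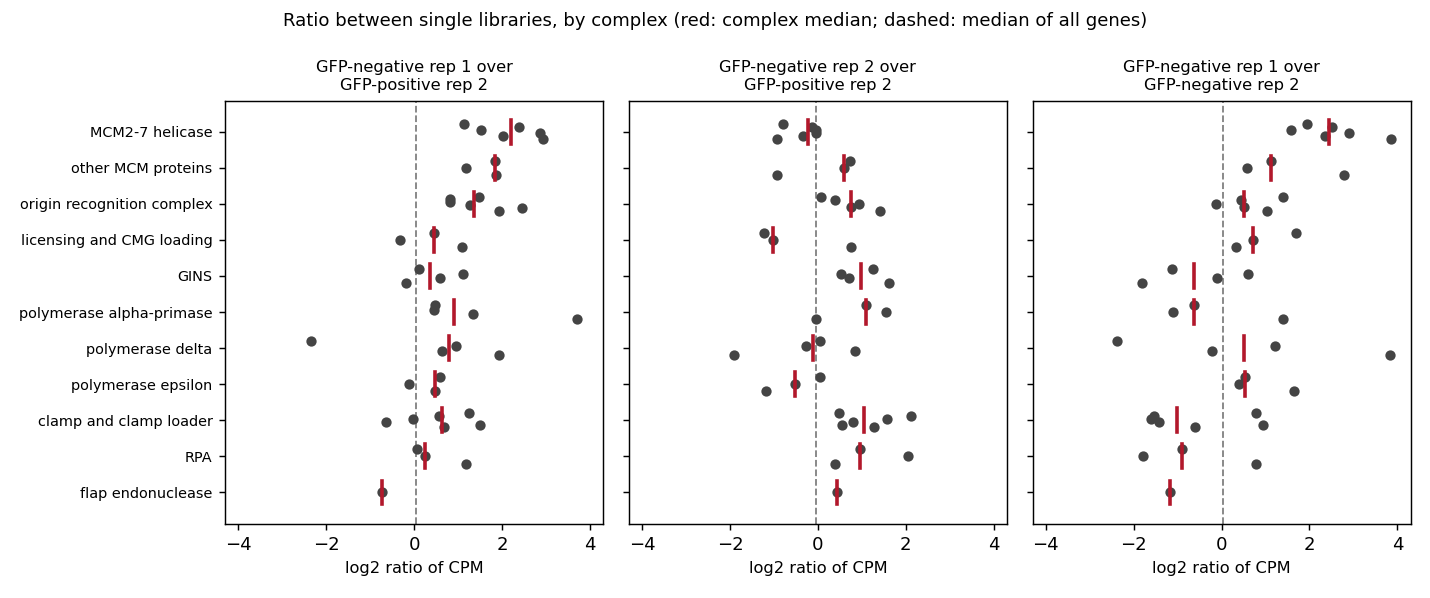
Log2 ratio of TMM-scaled CPM between 2 single libraries (x axes) for each gene (points) in each complex (y axis), with the complex median in red and the median of all genes dashed. MCM2-7 lies at a median of 2.201 in the left panel and -0.23 in the middle panel, and the clamp with its loader at 0.62 and 1.04.

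By rank of FPKM over the 43 genes, which share each library's depth and amplification, Spearman's correlation was 0.92 between GFP-negative replicate 2 and GFP-positive replicate 2. It was 0.79 between GFP-negative replicate 1 and GFP-positive replicate 2 and 0.70 within the GFP-negative pair. Over all symbols the same pairs gave 0.78, 0.75 and 0.72. Pairs with GFP-positive replicate 1 gave 0.45 to 0.55 over the 43 genes and 0.40 to 0.44 over all symbols. The likest pair was thus made of libraries of opposite groups. Together the 43 genes took 0.802% and 0.414% of the counts in GFP-negative libraries and 0.186% and 0.238% in GFP-positive libraries.

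The list of other replication genes, 49 in the table and 48 tested, covers kinases, fork proteins, nucleotide synthesis and histone chaperones. It held 0 called genes and 42 with a fitted change above 0 (87.5%, against 68.1% of all genes tested). Its median was 1.86, beside 0.91 over all genes tested. In GFP-positive replicate 1, 41 of the 49 had under 20 counts, and 81.2% of all tested genes with so few lay above 0. Pole, the polymerase epsilon catalytic subunit, had 8.996 and 0.240 CPM in GFP-negative libraries and 0 and 1.36 CPM in GFP-positive libraries, a log2 change of 2.75 ± 4.51 that turned to -1.5 without GFP-negative replicate 1. The genes with the smallest p were Recql4, a helicase of replication start, and Ticrr, which helps to load Cdc45. Recql4 had 4.40 and 1.95 CPM in GFP-negative libraries and no counts in GFP-positive libraries. Ticrr had 9.56 and 6.17 CPM in GFP-negative libraries and none in GFP-positive libraries. Against 3 counts per library its GFP-negative mean was at least 124-fold higher, a bound that covers counting error only. The log2 changes were 10.80 ± 5.87 for Recql4 and 12.11 ± 6.90 for Ticrr (edgeR adjusted p = 1.0 for both).

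Genes of dividing cells and of other cell types also differed between these libraries. Mki67, the proliferation marker, had 60.5 and 41.7 CPM in GFP-negative libraries and 0.107 and 19.8 CPM in GFP-positive libraries, and Top2a, which untangles replicated DNA, had 128 and 64.6 CPM in GFP-negative and 2.08 and 47.2 CPM in GFP-positive libraries. All 8 proliferation genes checked outside the 43 had a fitted change above 0, with 0 called and a median of 2.002. Over all genes tested 68.1% lay above 0, with a median of 0.91. In GFP-positive replicate 1, 6 of the 8 had under 20 counts, and 81.2% of all tested genes with so few lay above 0. Top2a is also in the list of other replication genes, so the lists are not separate. The summed level of the 11 macrophage markers with a row was 1091 and 17410 CPM in GFP-negative libraries and 109800 and 54890 CPM in GFP-positive libraries, with 3 of 11 called lower, and Ptprc, the CD45 gene, had 0 counts in GFP-positive replicate 1. The 4 hepatocyte markers summed to 23.5 and 319 CPM in GFP-negative and 27260 and 158 CPM in GFP-positive libraries, with 3 called lower. Outside GFP-positive replicate 1 nearly all of this was Ttr, at 23.0 and 318 CPM in GFP-negative libraries and 2080.3 and 155 CPM in GFP-positive libraries, and Alb had 0.141 and 0.060 CPM in GFP-negative and 5079.9 and 0 CPM in GFP-positive libraries. The 5 globin and heme genes summed to 1572 and 5389 CPM in GFP-negative and 45370 and 14330 CPM in GFP-positive libraries, with 2 called lower. The 7 neuroendocrine and epithelial genes summed to 4191 and 787 CPM in GFP-negative and 3167 and 688 CPM in GFP-positive libraries, with 0 called. Other lists were B and plasma cell genes (6, 0 called), T and NK cell genes (5, 0 called, all 5 at 0 counts in GFP-positive replicate 1) and endothelial genes (4, 0 called). The part of these in the levels of the replication genes was not tested.

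All 43 genes matched 1 protein-coding gene in GENCODE M21 and lay on 13 chromosomes, the MCM2-7 genes on 5 of them. The kit does not mark the strand, so reads of overlapping genes cannot be told apart. Shared exon bases were largest for Fen1 with the antisense gene Gm10143 (78.8% of the exon bases of Fen1), Gins2 with Gse1 (67.3%) and Orc2 with Nif3l1 (29.8%). Nif3l1 had 3600 and 6257 counts in GFP-negative libraries and 3 and 1402 counts in GFP-positive libraries, beside 6875 and 1973 for Orc2 in GFP-negative and 0 and 707 in GFP-positive libraries. Gse1 had 2878 and 547 counts in GFP-negative and 0 and 1094 counts in GFP-positive libraries, beside 4807 and 3037 for Gins2 in GFP-negative and 0 and 1785 in GFP-positive libraries. Gm10143 had 141 and 107 counts in GFP-negative libraries and 0 and 163 counts in GFP-positive libraries, and Fen1 had 2709 and 3602 counts in GFP-negative and 10828 and 2534 counts in GFP-positive libraries. Mcm7 shared 7.3% of its exon bases with Ap4m1 and 1.4% with Cops6, which had 19950 and 16824 counts in GFP-negative libraries and 19238 and 10897 counts in GFP-positive libraries. The 483 counts of Mcm7 in GFP-positive replicate 1 stand beside the 19238 of Cops6, and their split was not tested. Pcna has a pseudogene, Pcna-ps2, with a row of its own, so the split of reads between them is uncertain.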

How the data were processed

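RNA from 2 GFP-negative and 2 GFP-positive libraries was made into full-length cDNA by template switching from an oligo(dT) primer and then amplified by PCR, per the labels' protocols. The counts have no molecular identifiers, so limits and intervals cover counting error only, and amplification from little RNA can lose or multiply molecules. The authors deposited whole-number counts and FPKM (fragments per length and library total), as the file headers name them. The build mm10 and the tools StringTie 2.1.6, HISAT2 2.2.1, cutadapt 1.9, edgeR and DESeq2 are listed in the submitters' processing notes. Which tool made which column is not given in the sources used here.

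Counts were filtered with filterByExpr (minimum 10), scaled with TMM (factors 1.54 and 0.956 for GFP-negative, 0.722 and 0.944 for GFP-positive) and tested with edgeR 4.0.16 in R 4.3.3, with the group as the only term and a threshold of 0.05. SEs are the absolute change over the root of F. The common biological coefficient of variation was 1.92. Alternatives used DESeq2 1.42.0 and limma 3.58.1. The scripts were tested on simulated counts with a smaller spread than these data, so that test does not cover the spread seen here. FPKM served for levels between genes. Single-library ratios used genes with 10 counts in both libraries. What the replicate numbers share is not stated in the labels. Alternatives covered scaling, filters, tools, pseudocounts, a replicate block and leaving out each library.

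The genes, lists and naming rule were chosen with earlier results of these data known. Values are given for each complex's gene of highest mean FPKM and of smallest p, for genes with counts in every library, and for Pcna, Cdc6, Cdt1, Cdc45, Fen1 and Mcm2. Gins2, Gins3, Mcm9, Orc1, Orc3, Orc4, Orc5, Pold4, Prim2, Rfc1, Rfc3 and Rfc5, outside this rule, were named after their values were seen. Some genes that the lists or the rule hold are not reported here.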

Additional observations from a re-analysis of the deposited data

How the results depend on the processing

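The main fit called 0 of 43. Without GFP-positive replicate 2, which left GFP-positive replicate 1 alone in its group, the median log2 change was 11.51 for the 43. Over all genes tested it was 9.945 in that setting. Leaving out each library in turn gave 1 to 7601 calls over all genes (16 with all libraries), 0 to 33 among the 43, and a median log2 change of the 43 from 0.91 to 11.51. Calls over all genes were 63 by DESeq2's Wald test (51 higher and 12 lower, against 1 and 15 by edgeR) and 4 by limma-voom. Upper quartile scaling gave 0, as did limma on FPKM with each pseudocount (0.1, 1 and 5). Among genes with counts in all 4 libraries 5 were called. In that setting 18 of 22 replication genes lay above 0 with a median of 1.54, against 48.7% and -0.059 over all genes. With limma on FPKM and a pseudocount of 1, 1 of the 43 had an unadjusted p under 0.05. The median of all genes tested was 0.91 under TMM, 1.12 under DESeq2 size factors, 0.43 under upper quartile scaling and 1.33 under library totals, and that of the 43 was 1.83, 2.101, 1.53 and 2.27.

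The replicate number was added as a block: 21 genes were called, all lower, and 0 of the 43. In this fit the median of the 43 was 5.16 with 39 above 0, beside 3.92 and 75.8% above 0 over all genes. The deviations of same-numbered libraries correlated at -0.073 over genes, and the labels do not say what a shared number stands for.

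Directions turned under upper quartile scaling for Mcm3 (-4.10), Mcm7 (-2.51), Prim1 (-6.51), Pole2 (-0.29), Pcna (-6.05) and Rpa2 (-6.27), and without a filter for Prim1 (-0.015). On FPKM with pseudocounts of 0.1, 1 and 5 they turned for Gins4 (0.20, 0.19 and 0.17) and Rpa3 (0.057, 0.049 and 0.022). Leaving out single libraries gave ranges across 0 for Cdc45 (-0.23 to 13.99), Gins4 (-1.27 to 0.78), Pole2 (-0.20 to 6.58), Pole3 (-0.31 to 8.53), Rpa3 (-1.43 to 0.57), Prim1 (-0.62 to 1.10), Pcna (-0.13 to 1.006), Rpa2 (-0.83 to 1.41), Mcm3 (-0.042 to 2.36), Pola1 (-9.16 to 13.24), Pold1 (-0.91 to 8.59) and Pole (-1.5 to 11.39). Of 16301 genes tested, 3787 had 20 or more counts in GFP-positive replicate 1, so the upper quartile of that library was under 20 counts. The cause of these turns was not tested. With a common coefficient of variation of 1.92 and 2 libraries per group, wide SEs limit every comparison.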

Other observations

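Of the 49 other replication genes, 8 had 20 or more counts in GFP-positive replicate 1, among them Lig1, Rnaseh2b, Top1, Top2a, Chaf1a, Pclaf and Tk1, named here after their values were seen. Tk1, the thymidine kinase of the salvage route, had 28.2 and 51.9 CPM in GFP-negative and 181 and 67.3 CPM in GFP-positive libraries. Chaf1a, which deposits histones behind the fork, had 38.9 and 1.44 CPM in GFP-negative and 323 and 13.0 CPM in GFP-positive libraries. Its partner Chaf1b had 145 and 128 CPM in GFP-negative and 0 and 85.2 CPM in GFP-positive libraries, so partners of one complex were split between high and absent in the same library. Pclaf, the PCNA-binding factor, had 152 and 519 CPM in GFP-negative and 212 and 155 CPM in GFP-positive libraries.

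Genes with a large gap between the GFP-negative libraries were also found outside the 43. Rrm1, the large subunit of ribonucleotide reductase, had 263 and 52.7 CPM in GFP-negative and 0.346 and 48.0 CPM in GFP-positive libraries. Asf1b, a histone chaperone, had 93.7 and 486 CPM in GFP-negative and 0.213 and 121 CPM in GFP-positive libraries. None of these genes passed edgeR's test.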
